A study of Mus musculus with 4 samples.

Results

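The LIN28, MYC and oncofetal RNA-binding genes were read on 4 arrays of mouse embryonic stem (ES) cells. The 10 genes were Lin28a, Lin28b, Trim71, Igf2bp1, Igf2bp2, Igf2bp3, Hmga1, Hmga2, Myc and Mycn, and all probe sets annotated to 1 of these symbols alone were taken. This rule gave 23 of the 45101 probe sets of the array and covered 8 of the 10 genes. Igf2bp2 and Hmga1 had no such probe set and were not analysed here. Lin28a had 2 probe sets, Lin28b 1, Trim71 2, Igf2bp1 4, Igf2bp3 6, Hmga2 4, Myc 1 and Mycn 3. Of the 23 probe sets, 21 passed the filter on low signals, so that 7 genes were tested.

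The 4 cultures were E14.1 ES cells labelled Sall4-null (delta/-, line KO1) on feeders, Sall4 heterozygous cells (flox/-, line HET18) on feeders, and the same pair of lines without feeders. Each combination of genotype and feeders had 1 array. Feeders were blasticidin-resistant mouse embryonic fibroblasts, and cultures without feeders grew on gelatin. Both lines carried a blasticidin-resistance gene behind an internal ribosome entry site in the Oct3/4 locus, and all cultures received serum, leukaemia inhibitory factor (LIF) and blasticidin. The heterozygous cells thus also lacked 1 working Sall4 allele and had the other flanked by loxP sites. Each genotype was a single line, so line and genotype cannot be told apart.

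LIN28A and LIN28B are RNA-binding proteins of early embryonic cells that bind the precursors of let-7 microRNAs and block their maturation. Mature let-7 represses many transcripts, among them those of LIN28 itself, TRIM71, the IGF2BP proteins, HMGA2 and MYC, so that LIN28 and let-7 act against each other. TRIM71 is a ubiquitin ligase and RNA-binding repressor active in ES cells, the IGF2BP proteins bind and stabilise fetal mRNAs such as that of insulin-like growth factor 2, HMGA2 is an architectural chromatin protein, and MYC and MYCN are transcription factors of growth and proliferation. The group is called oncofetal because most members are high in the embryo, low in adult tissue and high again in some tumours. The array reads polyadenylated transcripts and gave no value for mature let-7.

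The let-7 family shares a seed, bases 2 to 8 of the mature strand. The seed GAGGUAG was found in 11 different mature sequences at 13 mouse loci in the RefSeq table (build GRCm38.p6). The count was made by these letters alone and includes mmu-miR-1961, of 17 bases. A shared seed alone does not show that LIN28 acts on a sequence. The 5 sequences below show the shared seed in capitals and the bases outside it that vary, and are given because LIN28 acts on this family and most members are its targets.
mmu-let-7a-5p, chr13:48538239-48538260, minus strand: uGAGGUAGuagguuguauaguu
mmu-let-7d-5p, chr13:48536078-48536099, minus strand: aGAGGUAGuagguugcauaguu
mmu-let-7g-5p, chr9:106178846-106178867, plus strand: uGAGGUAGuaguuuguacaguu
mmu-let-7i-5p, chr10:122985698-122985719, minus strand: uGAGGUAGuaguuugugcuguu
mmu-miR-98-5p, chrX:151913229-151913250, plus strand: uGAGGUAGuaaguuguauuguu

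Values are MAS5 signals as deposited, on a linear scale. The median signal of an array lay between 16.1 and 18, and arrays correlated at a Spearman rho of 0.911 to 0.941 across probe sets, which are not independent. Sall4 was higher on the arrays labelled null. Its brighter probe set read 1452 in cells labelled null and 781 in heterozygous cells on feeders, and 1671 and 1127 without feeders, a difference that did not pass by limma (adjusted p = 0.125 in a fit over every probe set). Its second probe set read 219 and 88.6 on feeders and 381 and 147 without feeders, 2.40-fold and 2.54-fold higher in cells labelled null (adjusted p = 0.0832 in that fit). The direction of each genotype difference rests on the labels. The labels do not say which part of Sall4 was deleted or where the probe sets lie, so these signals do not check the genotype. The 10 core pluripotency genes had median signals of 1291 in cells labelled null and 1590 in heterozygous cells on feeders, and 1179 and 1574 without feeders. The 29 markers of embryonic fibroblasts had median signals of 848 and 650 on feeders and 36.0 and 18.4 without feeders, in the same order. Their summed signals were 38108 and 28985 on feeders and 12281 and 5754 without feeders. Without feeders 27 markers in cells labelled null and 19 in heterozygous cells still read above the filter signal, and the lowest marker read 1.3, in heterozygous cells. The array labelled null without feeders had more fibroblast marker signal in median and sum than its heterozygous counterpart, with 25 markers higher and 4 lower.

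**Figure D1:**
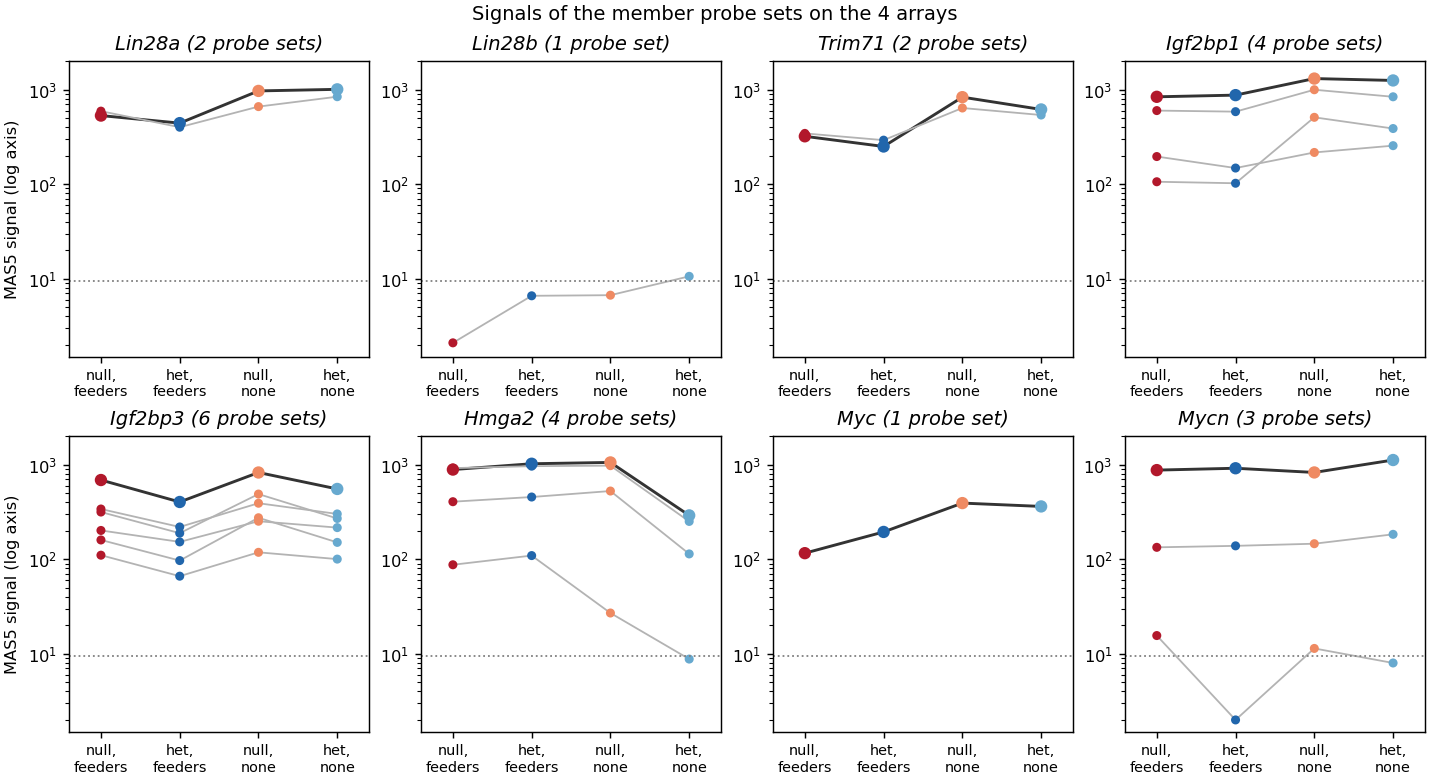
MAS5 signal on a log axis for all 23 probe sets of the members on the 4 arrays, 1 point per array, with the probe set used in the gene-level test in black and the others in grey (null, cells labelled Sall4-null; het, heterozygous cells; none, without feeders). The dotted line marks the filter signal of 9.46. Lin28a, Trim71 and Myc are lower on both arrays with feeders, Hmga2 is low on the heterozygous array without feeders, and Lin28b lies near or under the filter.

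The first comparison set cultures on feeders against cultures on gelatin. Lin28a, Trim71, Igf2bp1 and Myc fell on feeders, by 1.02, 1.32, 0.58 and 1.30 on the log2 scale. Igf2bp3 had a difference of -0.36, Mycn of -0.10 and Hmga2 of 0.77, and these 3 did not pass the test. The test was an additive limma model of genotype and feeders over all 12485 genes with Benjamini-Hochberg adjustment, with each gene read by its brightest probe set. Of the 7 members 4 fell and 0 rose on feeders, against 0.881% and 3.88% of all genes tested. At an unadjusted p under 0.05, 5 members were lower and 0 higher, against 7.77% and 14.1% of all genes. In both lines and at any size, 5 members were lower and 0 higher on feeders, against 30.1% and 37.1% of all genes. The members' median difference was -0.58 and that of all genes 0.03. The members were chosen with earlier results of these data known, so their shares can follow from the choice and are no test. The model had 1 residual degree of freedom per gene and drew most of each variance from a trend over all genes (4.75 prior degrees of freedom), so its p-values do not measure the spread between replicate cultures, of which there were none.

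In extracts of whole cultures, fewer ES cells and less RNA per ES cell cannot be told apart. Core pluripotency genes are given beside the members as a description. These genes can differ by feeders themselves, so the share of ES cells cannot be read from them. Their fitted feeder differences were above 0 in 8 of 10 genes with a median of 0.16, and 0 of the 10 passed by limma (3 higher and 0 lower at an unadjusted p under 0.05). In cells labelled null 9 were higher and 1 lower on feeders, with a median of 0.27. In heterozygous cells 6 were higher and 4 lower, with a median of 0.06. Pou5f1, the Oct3/4 gene that carried the selection cassette, read 1187 in cells labelled null and 1112 in heterozygous cells on feeders, against 977 and 1284 without feeders. On feeders Pou5f1 was thus higher in cells labelled null and lower in heterozygous cells. Lin28a, Trim71, Igf2bp1 and Myc were lower on feeders in both lines. The fibroblast markers were higher on the same arrays, and the part of feeder RNA in the falls was not tested.

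**Figure D2:**
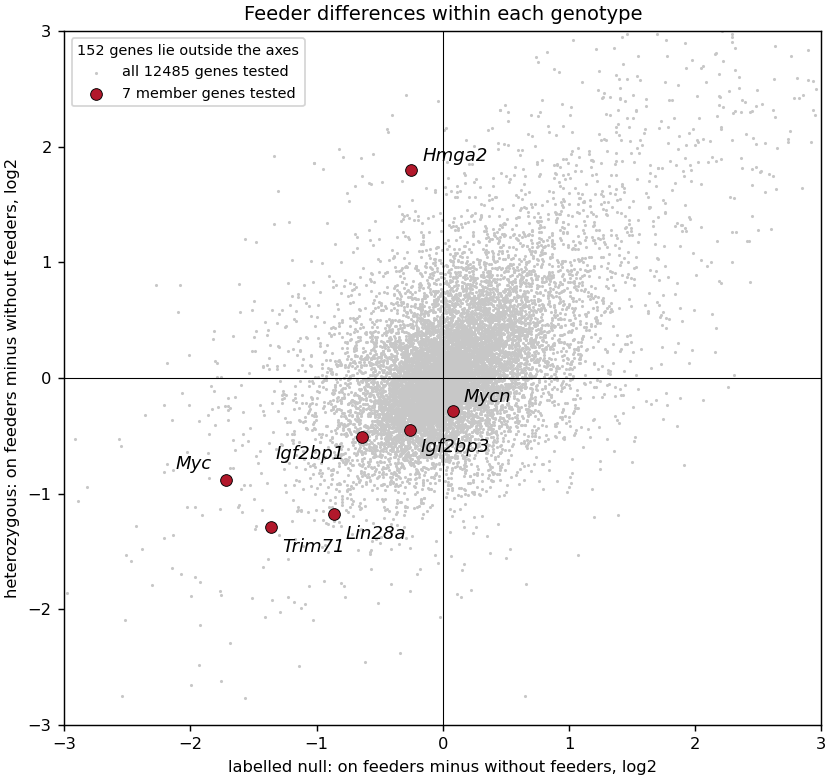
Difference on feeders minus without feeders, on the log2 scale with the offset, in cells labelled null (horizontal axis) and in heterozygous cells (vertical axis). Grey points are all 12485 genes tested, of which 152 lie outside the axes, and red points are the 7 members tested. Myc, Trim71, Lin28a, Igf2bp1 and Igf2bp3 lie below 0 on both axes, and Hmga2 is above 0 in heterozygous cells and below 0 in cells labelled null.

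Lin28a was lower on feeders in both lines. Its brighter probe set, 1437752_at, read 531 in cells labelled null and 442 in heterozygous cells on feeders, against 967 and 1005 without feeders. Both arrays with feeders lay under both arrays without, and the signal was 1.82-fold lower on feeders in cells labelled null and 2.26-fold lower in heterozygous cells. The fitted log2 difference was -1.02 (SE 0.14, adjusted p = 0.0172), which placed Lin28a at percentile 1.15 of all genes tested. The second probe set read 591 and 400 on feeders and 660 and 840 without feeders, in the same order of lines. It was lower on feeders in both lines too, but the step in cells labelled null was small, at -0.16 on the log2 scale against -1.06 in heterozygous cells. In a fit over every probe set that passed the filter (22986), 7 of the 21 member probe sets fell and 1 rose, against 1.65% and 4.24% of all probe sets. There the brighter Lin28a probe set fell (adjusted p = 0.00937) and the second, at -0.61, did not pass (adjusted p = 0.166).

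Lin28b, the paralogue of Lin28a, had a single probe set, 1430803_at, with low signals. It read 2.1 in cells labelled null and 6.6 in heterozygous cells on feeders, and 6.7 and 10.6 without feeders. Its mean lay under the filter signal of 9.46, so it was not tested, and the signals show no level that could be told from the low end of the array.

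Trim71, a repressor gene and let-7 target, fell on feeders on both of its probe sets. Its brighter probe set, 1453599_at, read 321 in cells labelled null and 250 in heterozygous cells on feeders, against 831 and 616 without feeders. It was 2.57-fold lower on feeders in cells labelled null and 2.44-fold lower in heterozygous cells, and the fitted difference was -1.32 (SE 0.14, adjusted p = 0.0079). A rule of size asked for a step of 2-fold or more, of 1 sign, in both lines. It took 1 member as lower, Trim71, and 0 as higher, against 0.529% and 3.96% of all genes. The second probe set read 344 and 292 on feeders and 638 and 538 without feeders, and fell by 0.88 in the fit over every probe set (adjusted p = 0.0179). The ranges of the arrays with and without feeders did not overlap on either probe set.

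The promoter windows of the pair of called members found in the RefSeq table (build GRCm38.p6), Lin28a and Trim71, are printed to show the sequence at the start of the genes that were lower together on feeders. Each window runs 5′ to 3′ on the strand of the gene, from 250 bases before to 50 after the start. Short motifs were searched on both strands: the E-box CACGTG, which MYC binds with its partner MAX, the octamer ATGCAAAT, which Oct3/4 binds, and the GC box GGGCGG, which Sp factors bind. Capitals mark matches, which read CCGCCC where the GC box lies on the other strand, and no match in the printed windows overlapped another.
Lin28a promoter, chr4:134018767-134019066, minus strand: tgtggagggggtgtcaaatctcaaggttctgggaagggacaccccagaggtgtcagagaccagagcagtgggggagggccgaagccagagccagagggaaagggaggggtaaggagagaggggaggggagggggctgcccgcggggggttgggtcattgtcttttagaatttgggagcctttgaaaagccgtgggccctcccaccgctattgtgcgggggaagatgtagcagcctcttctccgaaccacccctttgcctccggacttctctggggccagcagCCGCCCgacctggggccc
Trim71 promoter, chr9:114564320-114564619, minus strand: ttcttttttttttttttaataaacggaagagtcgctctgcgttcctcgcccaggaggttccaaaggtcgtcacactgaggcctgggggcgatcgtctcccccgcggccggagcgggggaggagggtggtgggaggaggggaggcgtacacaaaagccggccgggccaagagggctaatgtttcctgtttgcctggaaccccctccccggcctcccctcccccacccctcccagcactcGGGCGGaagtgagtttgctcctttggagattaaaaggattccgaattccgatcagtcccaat
Both windows held 1 GC box, a motif found in 35.7% of the 32851 promoter windows of the table. Neither held the E-box (7.15% of windows) or the octamer (1.74% of windows) in these letters.

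Igf2bp1, the first of the IGF2 mRNA-binding proteins, was lower on feeders on all 4 of its probe sets in both lines. The brightest, 1455223_at, read 838 in cells labelled null and 873 in heterozygous cells on feeders, against 1307 and 1248 without feeders. The lines were close to each other in each condition, and the fitted difference was -0.58 (SE 0.11, adjusted p = 0.0452). The size of the step depended on the probe set. Probe set 1449210_at read 106 and 102 on feeders and 509 and 387 without feeders, a fall of 2.04 in the fit over every probe set (adjusted p = 0.0019), whereas 1459825_x_at had a difference of -0.45 that did not pass (adjusted p = 0.26). Within that fit 3 of the 4 probe sets fell, and the fitted differences ran from -2.04 to -0.45.

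Igf2bp3, a paralogue known as an oncofetal protein, was lower on feeders on all 6 probe sets in both lines, at fitted differences of -0.69 to -0.33, and none of the 6 passed. Its brightest probe set, 1422610_s_at, read 688 in cells labelled null and 403 in heterozygous cells on feeders, against 826 and 553 without feeders. The arrays with and without feeders overlapped, since cells labelled null on feeders read above heterozygous cells without feeders. The fitted feeder difference was -0.36 (SE 0.13, adjusted p = 0.194).

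Myc, the transcription factor of growth, read 116 in cells labelled null and 194 in heterozygous cells on feeders, against 392 and 362 without feeders. The step was 3.29-fold lower on feeders in cells labelled null and 1.84-fold lower in heterozygous cells, and the fitted difference was -1.30 (SE 0.24, adjusted p = 0.0421). The lowest signal was that of cells labelled null on feeders. Myc was read by the single probe set 1424942_a_at, so no second probe set checks this value.

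Mycn, the relative of Myc that is abundant in ES cells, had a log2 range of 0.43 over the arrays. Its brightest probe set, 1417155_at, read 876 in cells labelled null and 916 in heterozygous cells on feeders, and 827 and 1119 without feeders. The fitted feeder difference was -0.10 (SE 0.13, adjusted p = 0.696) and the genotype difference -0.25 (SE 0.13, adjusted p = 0.518). The second probe set read 134 and 139 on feeders and 146 and 183 without feeders. The third, with signals of 15.6, 2.0, 11.4 and 8.0 in the same order, did not pass the filter.

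The calls of the 4 members depended on the variance model and on the probe sets. Without the variance trend 0 of the 7 members passed by limma, and 4 had an unadjusted p under 0.05. Over 10 alternatives the adjusted p ran from 0.00379 to 0.0734 for Trim71, from 0.00937 to 0.12 for Lin28a, from 0.0252 to 0.143 for Myc and from 0.0263 to 0.213 for Igf2bp1, with the difference below 0 in each. With the mean of its probe sets the Igf2bp1 difference was -0.92.

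Hmga2, the architectural factor and let-7 target, had another pattern than the 4 members that fell. Its brightest probe set, 1422851_at, read 887 in cells labelled null and 1022 in heterozygous cells on feeders, and 1055 in cells labelled null against 291 in heterozygous cells without feeders. A single array was thus low, that of heterozygous cells without feeders, and the signals of the others lay within 1.19-fold of each other. Signals of 919, 964, 975 and 251 on the second probe set and of 406, 455, 526 and 114 on the third, in the same order, gave the same picture. Compared with cultures without feeders, Hmga2 on feeders was 1.19-fold lower in cells labelled null and 3.48-fold higher in heterozygous cells, where 8.03% of genes were at least 2-fold higher. Cells labelled null were 1.15-fold lower than heterozygous cells on feeders and 3.59-fold higher without feeders, where 4.23% of genes were at least 2-fold higher.

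The genotype difference on feeders minus that without feeders came to -2.05 on the log2 scale, a value with no test at 1 array per group. It lay at percentile 0.545 of all genes, and 4.92% of genes had a value of -1 or lower. In the additive fit, where such a difference counts as residual, Hmga2 had a feeder difference of 0.77 (SE 0.44, adjusted p = 0.366) and a genotype difference of 0.82 (SE 0.44, adjusted p = 0.521). The dimmest probe set, 1446196_at, behaved differently, with signals of 87.4 and 109 on feeders and 27.0 and 8.8 without feeders. It was higher on feeders in both lines and rose by 2.31 in the fit over every probe set (adjusted p = 0.0183).

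Fibroblast markers are given beside Hmga2, which embryonic fibroblasts are known to express. Their course was like that of Hmga2 in part and unlike it in part. By limma 26 of the 29 tested fibroblast markers rose on feeders, against 3.88% of all genes, with a median difference of 4.30. Without feeders the markers' median signal was 36.0 in cells labelled null and 18.4 in heterozygous cells, a median difference of 1.18, in the same direction as Hmga2. There 25 of the 29 markers were higher in cells labelled null, and 4 were lower, Col1a2, Pdgfra, Thy1 and Col6a3. Single markers differed in their course. Vim, which encodes vimentin, read 4317 in cells labelled null and 3795 in heterozygous cells on feeders, and 4449 and 1730 without feeders, and was thus low on the same array as Hmga2. It was the exception among the markers. In cells labelled null 28 of the 29 were higher on feeders and 1, Vim, was lower. The markers' median difference there was 3.49, beside -0.25 for Hmga2. Tagln, a smooth muscle and fibroblast cytoskeletal gene, read 1731 and 1307 on feeders and 1492 and 657 without feeders. Col1a1, a collagen gene, read 1136 and 627 on feeders and 36.0 and 1.5 without feeders, and was low on both arrays without feeders. These 3 markers were chosen after their values were seen. The part of fibroblast RNA in the Hmga2 signals was not tested.

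**Figure D3:**
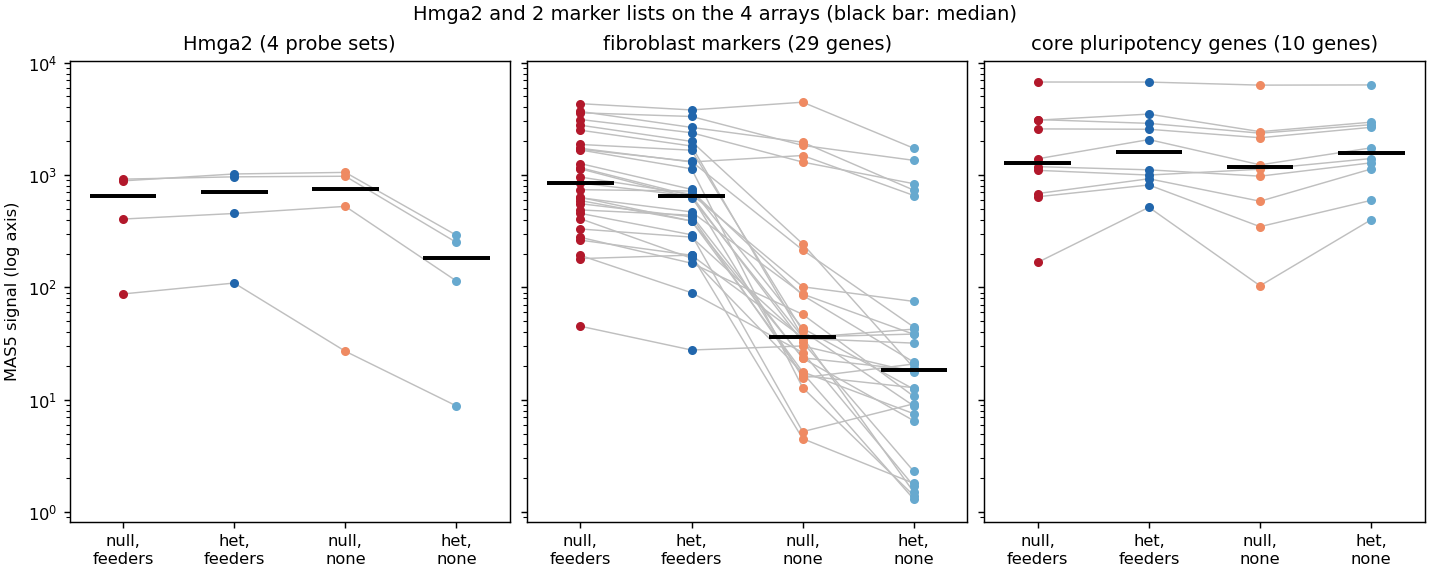
MAS5 signal on a log axis on the 4 arrays for the 4 Hmga2 probe sets, 29 fibroblast markers and 10 core pluripotency genes, each joined by a grey line, with the median as a black bar (null, cells labelled Sall4-null; het, heterozygous cells; none, without feeders). The fibroblast medians are 848, 650, 36.0 and 18.4 from left to right, and those of core pluripotency genes 1291, 1590, 1179 and 1574.

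The second comparison set cells labelled Sall4-null against heterozygous cells. Of the 7 tested members 0 changed by limma, against 0% of all genes that rose and 0.032% that fell. Of all genes that is 0 higher and 4 lower, a split that became 2 higher and 5 lower with quantile normalization or median centring. At an unadjusted p under 0.05, 2 of the 7 were higher, Igf2bp3 and Trim71, and 0 were lower, against 5.8% and 6.5% of all genes. None of the members met the rule of size, which took 0.328% of genes as higher and 0.785% as lower. In both conditions and at any size, 2 members were higher and 1, Mycn, was lower in cells labelled null, against 30.5% and 29.1% of all genes.

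All 6 Igf2bp3 probe sets were higher in cells labelled null in both conditions. On the log2 scale the differences ran from 0.39 to 0.76 on feeders and from 0.22 to 0.85 without feeders. The brightest probe set was 1.70-fold higher on feeders and 1.49-fold higher without feeders, with a fitted difference of 0.67 (SE 0.13, adjusted p = 0.178). Of these probe sets 4 have names ending in s_at, x_at or a_at, which mark probes that can bind several transcripts. The pair with plain names, 1433731_at and 1450687_at, had fitted differences of 0.31 and 0.46.

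The Igf2bp3 window is printed because among the tested members with a window it alone held the E-box, marked in capitals.
Igf2bp3 promoter, chr6:49214905-49215204, minus strand: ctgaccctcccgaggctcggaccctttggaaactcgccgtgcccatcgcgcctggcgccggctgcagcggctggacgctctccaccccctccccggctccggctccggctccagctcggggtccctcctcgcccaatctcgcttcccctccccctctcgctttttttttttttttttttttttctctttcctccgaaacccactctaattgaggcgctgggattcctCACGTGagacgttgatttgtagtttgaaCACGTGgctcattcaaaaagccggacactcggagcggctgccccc
The 2 E-boxes began at bases 228 and 256 of the 300. Such a match is a description of the window.

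Trim71 was also higher in cells labelled null on both probe sets and in both conditions, by 1.28-fold on feeders and 1.35-fold without feeders on the brighter one, and the fitted difference of 0.39 (SE 0.14) did not pass (adjusted p = 0.353). Lin28a had a fitted genotype difference of 0.10 (SE 0.14, adjusted p = 0.801), with both probe sets higher on feeders and lower without feeders in cells labelled null. Igf2bp1 had a difference of 0.00 (SE 0.11, adjusted p = 0.993), and its signals in the 2 lines were within 1.05-fold in each condition on the brightest probe set. Myc had a difference of -0.30 (SE 0.24, adjusted p = 0.658), at 1.65-fold lower on feeders and 1.08-fold higher without feeders in cells labelled null.

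**Figure D4:**
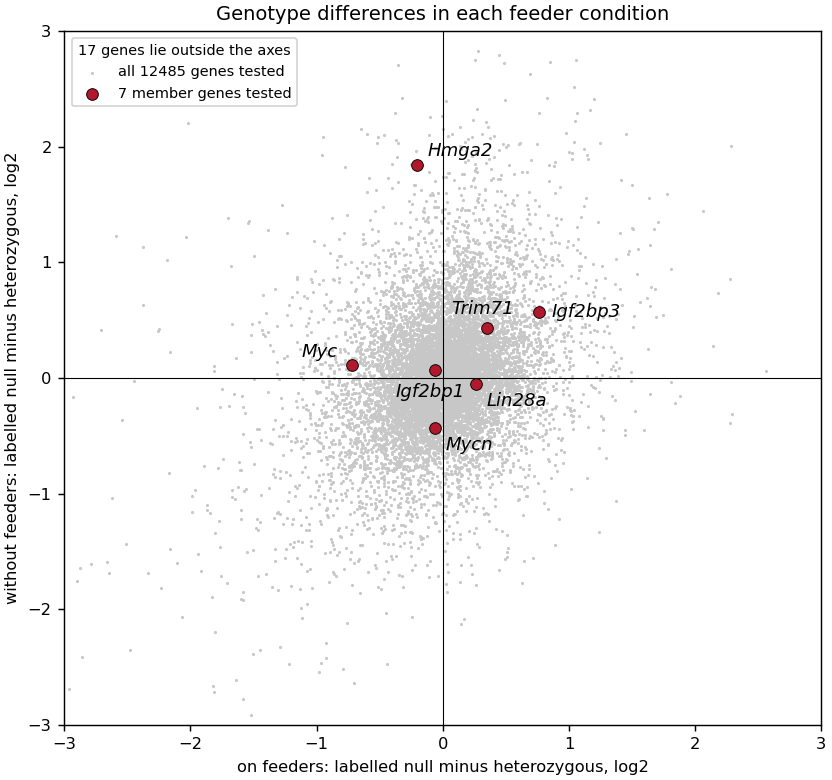
Difference of cells labelled null minus heterozygous cells, on the log2 scale with the offset, on feeders (horizontal axis) and without feeders (vertical axis). Grey points are all 12485 genes tested, of which 17 lie outside the axes, and red points are the 7 members tested. Hmga2 stands at -0.20 on feeders and 1.84 without feeders, and Igf2bp3 and Trim71 are above 0 on both axes.

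Genes with the most similar course over the 4 arrays were found by the distance of centred log2 values, for the 5 members with a log2 range above 1. For Lin28a they were ND5, Scube3 and Orai3, at distances of 0.05 to 0.07. For Trim71 they were the imprinted gene Mest, Retreg3 and Srrm2, at 0.17 to 0.20. For Igf2bp3 they were Dmgdh, Sall4 itself and Fkbpl, at 0.07 to 0.09. For Hmga2 they were Tcim, C130075A20Rik and Crtc3, at 0.26 each, and for Myc they were Tigd3, Sec14l3 and Dsp, at 0.23 to 0.27. With 4 arrays such a likeness has no test.

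Genes of the wider pathways were read from lists that shared no gene with each other. Of 18 tested genes of the let-7 pathway, the processing enzymes and LIN28 partners, 1 fell on feeders and 0 rose by limma. Over all genes these shares were 0.881% and 3.88%. The median difference of the list was -0.19. The gene that fell was Dhx36, an RNA helicase, with 303 and 253 on feeders and 580 and 511 without feeders in cells labelled null and heterozygous cells, a fall of 0.96 (adjusted p = 0.0228).

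Of 25 other let-7 targets tested, 3 rose on feeders and 0 fell by limma, against 3.88% and 0.881% of all genes. Their median difference was -0.09. Ccnd2, which encodes cyclin D2, read 1761 in cells labelled null and 1221 in heterozygous cells on feeders, against 122 and 51.5 without feeders, and rose by 4.12 (SE 0.20, adjusted p = 9.14e-04). Thbs1, which encodes the matrix protein thrombospondin 1, rose by 2.67, and the receptor gene Igf1r by 1.17. These rises went with the fibroblast markers described above, and the part of feeder RNA in them was not tested.

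Of 39 tested MYC targets 5 fell and 1 rose on feeders by limma, against 0.881% and 3.88% of all genes, and the other 33 did not pass. A fitted difference below 0 was seen in 35 of the 39, against 5762 of all 12485 genes, with a median of -0.21 beside 0.03. The same held for 14 of 18 let-7 pathway genes, 17 of 25 let-7 targets and 16 of 21 MAX network genes. It held for 15 of 24 RNA-binding relatives and 6 of 13 fetal growth genes. Of core pluripotency genes 2 of 10 lay below 0, and of fibroblast markers 0 of 29. MYC targets were also brighter, at a median of 760 beside 107.5 for all genes on the null-labelled array with feeders. All genes are thus not a matched background. Polr1b, a subunit of RNA polymerase I, read 104 in cells labelled null and 74.4 in heterozygous cells on feeders, against 285 and 328 without feeders, and fell by 1.74 (SE 0.22, adjusted p = 0.0145). Nop16, a nucleolar protein gene, fell by 1.64 (SE 0.20, adjusted p = 0.0125). Nop58, Nme1 and Odc1, which encode a ribosomal RNA processing factor, a nucleoside kinase and the first enzyme of polyamine synthesis, fell by 0.64, 0.58 and 0.45. Mthfd2, a mitochondrial folate enzyme gene, rose by 1.22. In the network of MAX, the partner of MYC, 1 of 21 genes fell and 0 rose by limma, beside the same shares of all genes. The gene that fell was Pim1, a kinase gene and target of LIF signalling, by 0.78.

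Fetal growth genes went both ways on feeders. By limma 3 of 13 rose and 1 fell, against 3.88% and 0.881% of all genes, and the median was 0.14. Igf2, the growth factor whose mRNA gave the IGF2BP family its name, read 2425 in cells labelled null and 2219 in heterozygous cells on feeders, against 816 and 368 without feeders, and rose by 2.07 (SE 0.23, adjusted p = 0.0103). Grb10, an adaptor of growth factor receptors, rose by 3.19 and the non-coding RNA gene Meg3 by 1.16, while Mest fell by 1.38. The 3 rises went with the fibroblast markers, and the part of feeder RNA in them was not tested. Of 24 RNA-binding and high mobility group relatives 0 passed by limma in either direction on feeders (3 higher and 6 lower at an unadjusted p under 0.05), with a median of -0.10. The largest fitted feeder differences among them were 0.91 for Ybx2 (adjusted p = 0.166) and 0.54 for Elavl2 (adjusted p = 0.145), both genes of RNA-binding proteins.

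**Figure D5:**
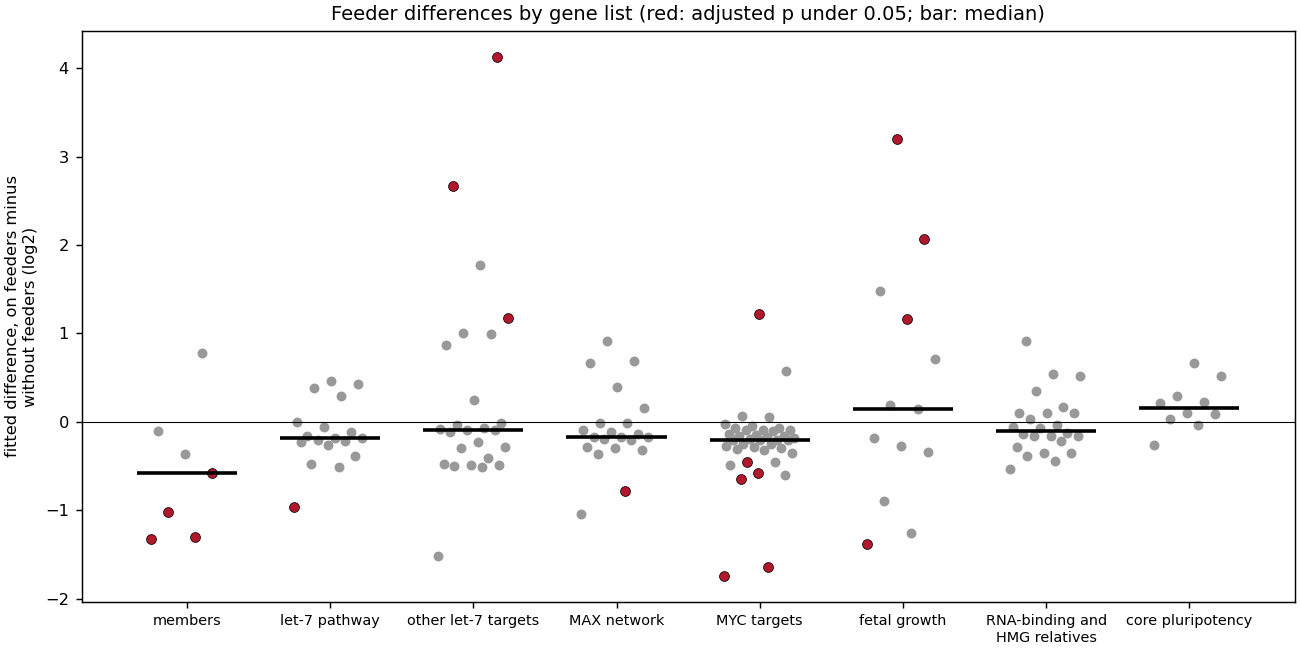
Fitted log2 difference on feeders minus without feeders for each tested gene of the members and 7 lists, with red points for an adjusted p under 0.05 and a bar for the median. The medians are -0.58 for the members, -0.19, -0.09, -0.16, -0.21, 0.14 and -0.10 for the next lists from left to right, and 0.16 for core pluripotency genes.

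Between genotypes 0 genes of these lists changed by limma, and the genes named next met the rule of size, which is no test. Mxd4, a MAX partner that opposes MYC, read 70.7 in cells labelled null and 31.8 in heterozygous cells on feeders, and 55.6 and 8.3 without feeders, a fitted difference of 1.64 (adjusted p = 0.189). The imprinted gene Peg3 read 641 and 276 on feeders and 2346 and 435 without feeders, a difference of 1.81 (adjusted p = 0.152). Dazl and Ybx2, germ cell RNA-binding protein genes, were lower in cells labelled null, at 43.7 and 95.8 on feeders and 33.7 and 73.2 without feeders for Dazl, and at 15.3 and 38.5 on feeders and 4.9 and 20.8 without feeders for Ybx2. Fgf4, an ES cell growth factor gene of the core pluripotency list, was lower as well, at 167 and 516 on feeders and 103 and 401 without feeders, a difference of -1.76 (adjusted p = 0.0839). Of the fibroblast markers Lum and Twist2 met the rule as higher in cells labelled null. Lum read 408 and 182 on feeders and 17.3 and 1.3 without feeders. Twist2 read 193 and 89.6 on feeders and 26.3 and 1.7 without feeders. The median genotype difference was 0.63 for fetal growth genes, with 7 of 13 higher at an unadjusted p under 0.05, and 0.76 for fibroblast markers, with 19 of 29. Over all genes these shares were 5.8% higher and 6.5% lower. For MYC targets the median was -0.09, with 1 higher and 6 lower of 39. At the same p, 1 of 18 let-7 pathway genes, 2 of 25 let-7 targets and 1 of 21 MAX network genes were higher and 0 were lower, the higher ones at a share near that of all genes, and of 24 relatives 2 were higher and 2 lower. The 10 core pluripotency genes all had a fitted difference below 0, with a median of -0.19 and 5 of them at such a p. On feeders 5 of them were higher and 5 lower in cells labelled null, with a median of -0.09. Without feeders all 10 were lower, with a median of -0.35. The part of such markers in the members' genotype differences was not tested.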

How the data were processed

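The authors deposited 1 table of MAS5 signals, an array intensity on a linear scale, for 45101 probe sets, 1 column per sample. Signals are MAS5 values per the submitters' processing notes, which give no version. Each array had a 2% trimmed mean of 100 and was not scaled again. No detection calls were used. The 64 control probe sets were dropped. The platform annotation gave 1 gene symbol for 34945 probe sets, several for 932 and no entry for 9160, and named 18193 genes by 1 symbol.

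The scale was log2(signal + 4.6), with the 25th percentile of all signals as offset. It shrinks folds of dim probe sets, and every fold and log2 difference printed includes it. Each gene was read by its brightest probe set, and genes with a mean log2 under the 40th percentile (3.81, a signal of 9.46) were left out, which left 12485. limma 3.58.1 in R 4.3.3 (lmFit, eBayes with a variance trend) fitted genotype and feeders, with 1 residual and 4.75 prior degrees of freedom. Tests were two-sided with Benjamini-Hochberg adjustment over all genes and a threshold of 0.05. SE is the moderated standard error. A rule of size, without a test, took genes at least 2-fold different in the same direction in both conditions, and in each pair at least 1 array brighter than 17.1, the median signal. Differences are labelled null minus heterozygous, and on feeders minus without feeders.

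The members and lists were chosen with earlier results of these data known. Named were all members, Sall4 and Pou5f1, the 3 nearest patterns of members with a log2 range above 1, and from each list up to 4 genes past the test or the rule of size in each comparison, otherwise from those with the largest differences; Nme1, Odc1, Vim, Tagln and Col1a1 were named after their values were seen. The fit was run on simulated data with additive genotype changes and noise drawn from its own prior variance. Such data hold no differences between lines or cultures, so the run is no check on these. With 4 arrays and no replicates, precision is limited by their number.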

Additional observations from a re-analysis of the deposited data

Results flagged for a closer look

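Genotype differences of 4 tested members had opposite signs in the 2 feeder conditions, and are listed for that reason; with 1 array per group none of these differences between conditions was tested. For Hmga2 the difference of cells labelled null minus heterozygous cells was -0.20 on feeders and 1.84 without feeders, a difference of -2.05 on the log2 scale. For Myc it was -0.72 and 0.12, a difference of -0.84. For Lin28a it was 0.26 and -0.06, a difference of 0.32, and for Igf2bp1 -0.06 and 0.07, a difference of -0.12. These are values of the brightest probe sets. The second Lin28a probe set stood at 0.56 and -0.35, a difference of 0.90. Of the other Igf2bp1 probe sets, 1418761_at and 1449210_at were above 0 in both conditions, and 1459825_x_at stood at 0.39 and -0.23, so that the sign change of Igf2bp1 was not shared by all its probe sets. All 4 Hmga2 probe sets had the same signs, with differences of -2.33 to -1.55. The fibroblast marker medians beside them were 0.47 on feeders and 1.18 without feeders.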

How the results depend on the processing

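Across 10 alternatives, the 14 fitted differences of the 7 members kept their direction and side of the threshold in 122 of 140 values, were no longer called in 16, and changed sign in 2. The 2 were small differences by genotype, Igf2bp1 at -0.057 with arrays centred on their medians and Mycn at 0.18 with the mean of its probe sets; the cause was not tested. Members called by feeders, 4 in the report, numbered 2 with an offset of 1, without a filter, with a filter at the 60th percentile and with the mean of probe sets, 0 without the variance trend and 1 in a model with 1 factor. Members meeting the rule of size by feeders, 1 in the report, numbered 3 over every probe set and at 1.5-fold, and 0 at 3-fold. Over all genes, 595 were called by feeders, against 269 without a filter, 268 at the 60th percentile, 1354 over every probe set, 384 with the mean of probe sets, 183 without the trend and 231 with 1 factor. By genotype 4 were called, against 7 with quantile normalization or median centring, 14 over every probe set, and 0 without a filter, at the 60th percentile, without the trend or with 1 factor. The rule of size took 560 genes by feeders, against 354 at the 60th percentile, 984 over every probe set, 1251 at 1.5-fold and 262 at 3-fold. By genotype it took 139, against 58 with the offset at the median signal, 78 at the 60th percentile, 495 at 1.5-fold and 32 at 3-fold. An interaction of at least 1 was seen in 1038 genes, against 452 with that offset, 2489 without a filter, 512 at the 60th percentile and 1998 over every probe set. List genes meeting the rule of size by feeders ranged from 31 to 41. No paired analysis was possible because each group held 1 array and the groups share a single replicate number; the fit of genotype and feeders together already compares feeders within each line, and the model with 1 factor drops that. For the same reason leaving out an array leaves no residual degree of freedom: the differences then are those of the remaining pair, given in the report. Signals near 9.46, as for Lin28b, limit what can be compared.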
